A study of Mus musculus with 2 samples.

Results

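The 10 genes described here are Cdkn1a, Mdm2, Ccng1, Phlda3, Zmat3, Trp53inp1, Sesn2, Aen, Eda2r and Rps27l, all known transcriptional targets of p53. They were taken by symbol from the 32285 genes of both expression matrices, and all 10 were present. The data were droplet-based single-cell RNA sequencing of sorted CD45+ cells (leukocytes). They came from subcutaneous tumors of MC38, a colon carcinoma line of the mouse, in male and female mice aged 8 to 10 weeks per the methods and labelled wild type (WT). The study also uses WT for Ythdf2 fl/fl mice on the C57BL/6J background, and which of these was used here is not given in the labels. The Control library came from tumors without irradiation and the IR library from tumors that received 20 Gy of ionizing radiation as 1 local dose 4 days before collection. Both groups were WT and carried no other labelled treatment. Tumors were pooled for each library, per the methods, and each group was 1 library without a biological replicate. No test could be made and no p-value is given. Every interval below is a 95% interval that covers counting error only, and it covers neither the differences between mice nor those between cells. The labels also name the cells CD45+CD11b+Ly6Chi, a myeloid phenotype. T cells, NK cells and cells with hardly any Ptprc, the gene of CD45, were found in both libraries and go against this name.

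p53 is a transcription factor that is stabilised when DNA is broken. Its targets include the cell cycle inhibitor p21 (Cdkn1a), the ubiquitin ligase that returns p53 to a low level (Mdm2) and a set of genes that restrain growth signalling or promote cell death. In leukocytes the pathway is best known for the death of lymphocytes after irradiation, while macrophages are known to tolerate high doses. The comparison asks which lineages of the irradiated tumor still differed from Control in these targets 4 days after the dose.

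Each cell was assigned to a gate, that is, to the lineage whose marker genes passed a threshold in it while those of the other lineages did not. Monocyte markers were not used to leave cells out of other gates, and the gates still held some UMIs of other lineages' markers. The counts of unique molecular identifiers (UMIs, 1 per captured RNA molecule) were summed per gate and library and given as counts per 1e+06 UMIs of that gate (CPM). The matrices held 4975 Control and 3507 IR barcodes with at least 1000 UMIs, of which 7 barcode sequences occurred in both. After a limit of 25% mitochondrial UMIs, 4679 and 3411 cells remained, with a median of 7302 and 8266 UMIs. A gate was found for 78.2% of the Control and 79.7% of the IR cells. The T cell gate held 384 Control and 298 IR cells, and the NK cell gate 304 and 389. The dendritic cell (DC) gate held 156 and 193 cells, the macrophage gate 2154 and 524, and the monocyte gate 541 and 1043. The neutrophil gate held only 27 Control cells and 173 IR cells, at median depths of 1831 and 2551 UMIs, and its values are the least certain. The stromal gate was defined by 9 markers, among them Col3a1, other collagen genes and Dcn. It held 93 and 97 cells at a median of 18445 and 30909 UMIs. Its cells had 20 and 12 UMIs of Ptprc in all, so they went against the CD45+ sort. Dcn was at 769 and 678 CPM, but as a marker of the gate its level was set in part by the gating. Outside the gate's markers, the fibroblast gene Pdgfra had 20 and 31 UMIs. Of the pericyte genes, Rgs5 had 3 and 1 UMIs, but Cspg4 had 159 and 165. Of its cells 53.8% and 75.3% were cycling, that is, had at least 3 UMIs of 12 cycling genes. Epithelial keratins were nearly absent there, with 2 and 0 UMIs of Krt8 and no UMI of Krt18.

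Among the members, 5 had a p53 motif in the promoter windows that RefSeq gives for 8 of them (GRCm38.p6, from 250 bases before to 50 after the first transcribed base, which is counted as position 0). The motif searched was the p53 decamer, the 10-base unit of which a full p53 response element holds a pair. Its consensus is the same on both strands. An exact match was found in 8.36% of all 32851 windows and in 6 of the 11 windows of the members. These include both Aen windows, which overlap and hold the same decamer. A full pair with no mismatch, separated by at most 13 bases, was found in 0.0731% of all windows, and a pair with at most 1 mismatch in 0.417%. Zmat3 and Trp53inp1 had no window. The stretches around the matches are shown because a decamer is the sequence that p53 is known to bind, with the decamers in capitals. A match is a description of the sequence and not a measured site. The Cdkn1a stretch lies at chr17:29090849-29090968 on the + strand and holds a pair with 0 mismatches and 12 bases between the decamers. The pair begins at position -73 of the upstream one of its annotated starts, and the window of the other start held no decamer. The 10 bases directly after the pair's second decamer match the consensus but for 1 outer base. With that decamer they form a pair with 1 mismatch and 0 bases between. They stay in lower case because only exact decamers and the pair with the fewest mismatches were marked.
Cdkn1a: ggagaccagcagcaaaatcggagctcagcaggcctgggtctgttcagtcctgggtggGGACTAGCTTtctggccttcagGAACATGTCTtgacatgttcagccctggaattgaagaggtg
The Rps27l stretch lies at chr9:66946253-66946352 on the + strand and holds a pair with 1 mismatch and 0 bases between, from position -117 of its second annotated start. A further decamer of that window lies upstream of the stretch.
Rps27l: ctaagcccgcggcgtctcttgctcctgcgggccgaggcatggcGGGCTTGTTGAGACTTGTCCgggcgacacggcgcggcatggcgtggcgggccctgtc
Mdm2 (chr10:117710889-117710988, - strand) and Ccng1 (chr11:40755417-40755516, - strand) each held a single decamer, at positions -186 and -185.
Mdm2: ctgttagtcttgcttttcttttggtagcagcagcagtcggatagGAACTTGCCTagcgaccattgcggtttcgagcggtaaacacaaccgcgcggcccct
Ccng1: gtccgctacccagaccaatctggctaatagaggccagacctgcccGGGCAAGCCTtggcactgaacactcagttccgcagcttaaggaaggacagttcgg
Aen held 1 decamer at position 10, just after the first of its annotated starts (chr7:78895927-78895956, + strand).
Aen: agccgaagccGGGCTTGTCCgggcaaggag
The window of Phlda3 held no whole decamer, nor did those of Sesn2 and Eda2r. The last 8 bases of the Phlda3 window (chr1:135766105-135766134, + strand) were the first 8 of a decamer, and the next 2 lay beyond it. This edge was looked at after the sequence was seen, and 0.137% of all windows ended in this way.
Phlda3: gcggcgcaggaggcgagcggtgGAACATGT

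The number of members that differed between IR and Control varied with the gate, and this variation was not tested. A gene was counted in a gate when it had at least 20 UMIs over both libraries, and called higher or lower at a difference of 1.5 times or more. In the DC gate 4 of 8 counted members were called higher and 0 lower, where 12.0% of all counted genes were higher and 9.02% lower. These were Phlda3, Mdm2, Trp53inp1 and Aen, and the ratios of the last pair had intervals that included 1. In the NK cell gate 3 of 9 were higher (Phlda3, Cdkn1a and Sesn2, the last with an interval that included 1) and 1 lower (Trp53inp1), against 9.11% and 9.03% of all genes. In the macrophage gate 2 of 9 were higher and 0 lower, against 8.06% and 12.2%. In the T cell gate 2 of 9 were higher and 0 lower, against 11.7% and 9.03%. In the neutrophil gate 2 of 5 were higher and 0 lower, where 31.9% of all genes were called higher and 28.7% lower. Few counts stood behind this gate, and their part in these shares was not tested. In the monocyte gate 1 of 9 was higher and 2 lower, against 8.94% and 7.48%, and in the stromal gate 1 of 8 was higher and 0 lower, against 8.2% and 9.68%. The shares called higher in the monocyte and stromal gates were thus near the background. The filter added the UMIs of both libraries, for members as for all genes. Phlda3 passed it through IR in the T cell (5 and 24 UMIs), NK cell (3 and 46) and DC (1 and 29) gates. So did Trp53inp1 in the DC gate (8 and 24) and Mdm2 in the neutrophil gate (5 and 88). These calls rest on few Control UMIs, and no shift of the members as a set is read from them.

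The median log2 ratio of IR over Control over the counted members was 0.63 in the DC gate, 0.49 in the macrophage gate, 0.43 in the neutrophil gate and 0.38 in the NK cell gate. It was 0.15 in the stromal gate and 0.10 in both the T cell and the monocyte gates. The medians of the members' lower and upper bounds were -0.12 and 1.15 in the DC gate and -0.64 and 0.29 in the monocyte gate. These bands overlapped between all gates, so the gates are not ranked by their medians. Over all counted genes the medians lay between -0.06 and 0.03 in the 7 gates. Eda2r, which encodes a receptor of the TNF receptor family, had at most 4 UMIs in any gate and library and was never counted.

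**Figure D1:**
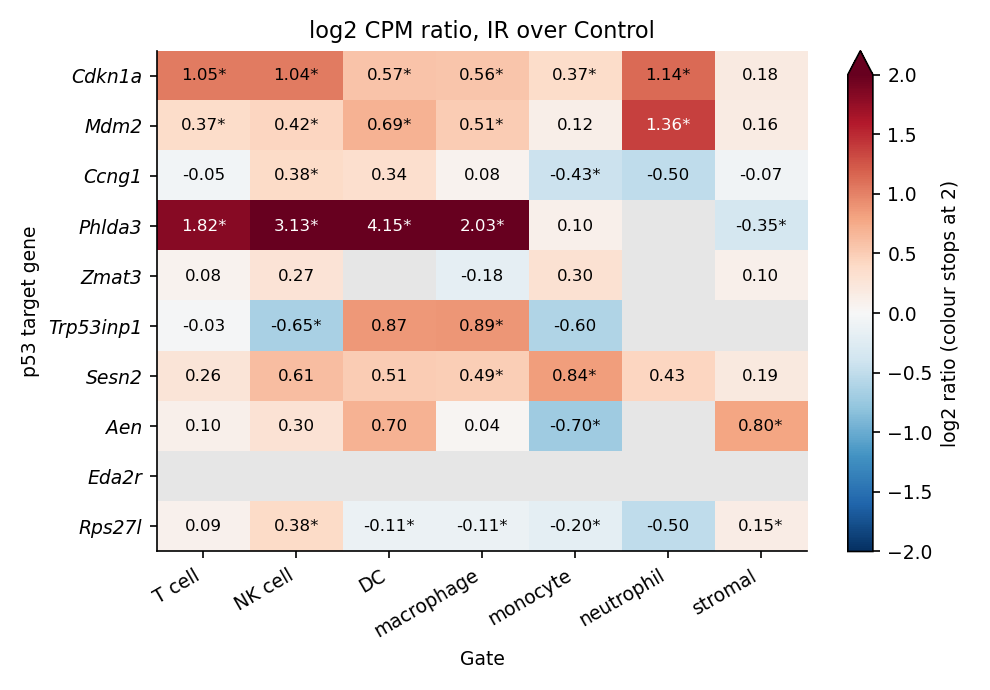
Log2 ratio of CPM, IR over Control, for each p53 target (rows) in each gate (columns). An asterisk marks a ratio whose 95% counting interval excludes no difference, grey marks members with under 20 UMIs, and the colour stops at 2. Phlda3 had the highest value in the T cell (1.82), NK cell (3.13), DC (4.15) and macrophage (2.03) gates, and 0.10 in the monocyte gate.

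Phlda3 encodes a small pleckstrin homology domain protein that restrains AKT signalling. It was singled out after its values were seen, since it differed most between the libraries. In the T cell gate 5 UMIs in Control (1.996 CPM, 0.648 to 4.66) stood against 24 in IR (7.04 CPM, 4.51 to 10.47). In the NK cell gate 3 UMIs (1.28 CPM, 0.264 to 3.75) stood against 46 (11.2 CPM, 8.22 to 14.97). The gene was thus almost unmeasured in Control lymphocytes and clearly counted in IR lymphocytes. In the DC gate 1 UMI (0.819 CPM, 0.0207 to 4.56) stood against 29 (14.5 CPM, 9.71 to 20.8). In the macrophage gate 68 UMIs (3.48 CPM, 2.71 to 4.42) stood against 82 in far fewer cells (14.3 CPM, 11.3 to 17.7). In these gates the IR level lay above the counting interval of Control. The ratios were 3.52 (1.32 to 11.8) in the T cell gate, 8.75 (2.81 to 44.0) in the NK cell gate, 17.7 (2.93 to 723) in the DC gate and 4.09 (2.93 to 5.73) in the macrophage gate.

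The monocyte gate was different. Its 10 Control UMIs (3.02 CPM, 1.45 to 5.55) and 31 IR UMIs (3.23 CPM, 2.19 to 4.58) overlapped, with a ratio of 1.07 (0.511 to 2.44). The ratio in the macrophage gate exceeded that in the monocyte gate by 3.83 times (1.75 to 8.37), that in the NK cell gate by 8.19 times (2.09 to 32.2) and that in the DC gate by 16.6 times (1.99 to 138). For the T cell gate this factor was 3.30 (0.995 to 10.9), so the T cell and monocyte gates could not be told apart beyond counting error. Neither could the T cell, NK cell, DC and macrophage gates among themselves. No Phlda3 UMI was found in the neutrophil gate of either library, which allows up to 35.8 CPM in Control and up to 5.23 CPM in IR.

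The stromal gate had the most Phlda3 of all gates, and in the opposite order of the libraries. Its level was 216 CPM (413 UMIs, 196 to 238) in Control and 169 CPM (533 UMIs, 155 to 184) in IR, a ratio of 0.783 (0.687 to 0.892). The macrophage ratio exceeded the stromal one by 5.23 times (3.70 to 7.39). Stromal markers were few in the other gates, which by definition left out cells past the stromal threshold. The T cell gate of IR held 16 UMIs of the 9 stromal markers (3 of them at 0), or 4.69 CPM against 4.39 CPM in Control. At the stromal gate's own proportion of Phlda3 to stromal markers, stromal RNA would bring at most 0.468 CPM of Phlda3 to any other gate. Empty droplets held 9 Phlda3 UMIs in Control (5.47 CPM) and 16 in IR (14.5 CPM). With the share of free RNA estimated for each gate, at most 7.25%, free RNA would bring at most 1.05 CPM. Both estimates come from markers by which cells were left out of these gates, so both can be too low.

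**Figure D2:**
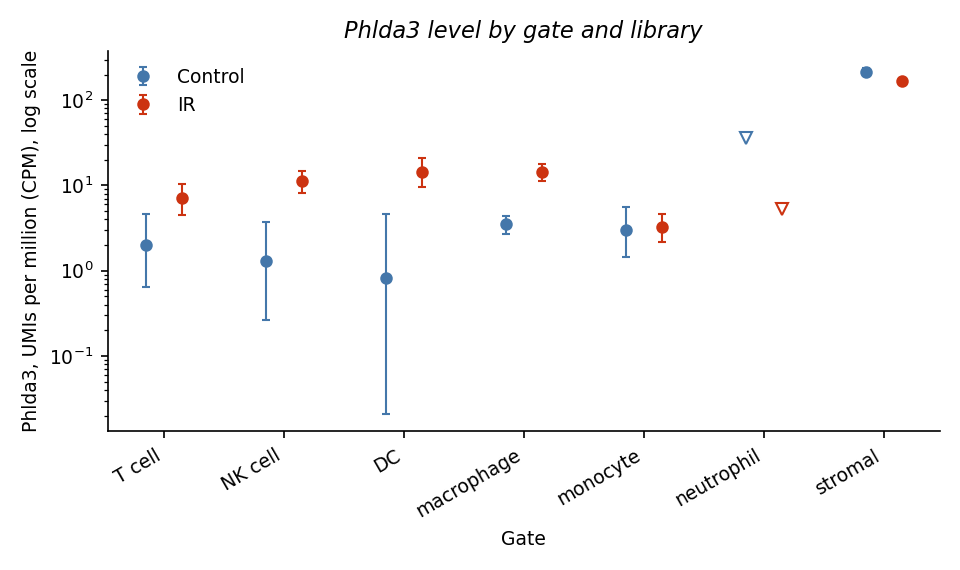
Phlda3 CPM on a log axis in each gate for Control (blue) and IR (red), with bars for the 95% Poisson counting interval. Open triangles mark the limit of 3 counts where no UMI was found. IR lay above Control in the T cell, NK cell, DC and macrophage gates, at Control's level in the monocyte gate (3.02 and 3.23 CPM) and below it in the stromal gate.

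The IR signal was spread over cells. A Phlda3 UMI was found in 15 of 298 T cells (5.03%), 33 of 389 NK cells (8.48%), 13 of 193 DCs (6.74%) and 45 of 524 macrophages (8.59%) of the IR library. In Control these shares were 1.302%, 0.987%, 0.641% and 2.60%. Monocytes gave 1.66% in Control and 2.21% in IR, and neutrophils 0 of 173 cells in IR, which allows up to 1.73% at their lower depth. When every cell was thinned to 1000 UMIs, 0 to 10 cells with a UMI remained in each of these gates and libraries, too few to rank the gates. After thinning, a UMI was found in 0.279% of Control macrophages (0.102 to 0.605) and in 1.91% of IR macrophages (0.919 to 3.48). For monocytes the thinned shares went the other way from the unthinned ones, with 0.739% in Control (0.202 to 1.88) and 0.0959% in IR (0.00243 to 0.533). The cell with the most Phlda3 held 27.6% of the UMIs in the IR DC gate and 14.6% in the IR macrophage gate. Without it the levels were still 10.6 and 12.3 CPM.

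Within the T cell gate, cells that had Cd8a or Cd8b1 but not Cd4 held 1 Control and 14 IR UMIs of Phlda3 (0.734 and 8.13 CPM). Those with Cd4 and neither of the Cd8 genes had 0 and 7 (0 to 8.06 CPM in Control and 3.72 to 19.0 CPM in IR). Within the NK cell gate, cells with at least 2 UMIs of the Ly49 receptor genes Klra4, Klra7 and Klra8 had 0.882 and 10.1 CPM, and the others 1.66 and 14.3 CPM. The IR level was above the Control interval on each side of these divisions, but the Cd4 intervals overlapped. Within the DC gate, cells led by Fscn1, Ccr7 and Cacnb3, genes of mature migratory DCs, had 1.01 and 13.3 CPM. Those led by Cd209a had 0 and 8 UMIs, or 19.6 CPM in IR. Cycling macrophages had 3.29 and 16.2 CPM, and the other macrophages 3.6 and 13.9 CPM. Without cells that had at least 3 UMIs of the myeloid gene Lyz2 per 10000 UMIs, Phlda3 was 2.21 and 11.8 CPM in the T cell gate, 0.9996 and 12.9 CPM in the NK cell gate and 1.02 and 13.9 CPM in the DC gate. Cells without a gate held 6.48 CPM (Control) and 19.4 CPM (IR). In the stromal gate, cells with at least 3 Dcn UMIs had 228 and 167 CPM, and the others 183 and 178 CPM.

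Macrophages of tumors mature from monocytes, so the macrophage and monocyte gates were also divided by the macrophage share of a cell's macrophage and monocyte marker UMIs. Where this share was 90 to 100%, Phlda3 was 3.22 CPM (2.30 to 4.38) in 1386 Control cells and 25 CPM (18.6 to 32.9) in 187 IR cells. At 75 to 90% the levels were 4.26 and 8.53 CPM, and at 50 to 75% they were 3.35 and 8.22 CPM. At 25 to 50% they were 7.17 CPM (7 UMIs) and 4.18 CPM (12 UMIs), and below 25% they were 1.28 and 2.82 CPM. In IR the level of the cells with the most complete macrophage profile lay above the intervals of the other 4 classes, while the Control intervals of all 5 classes overlapped.

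**Figure D3:**
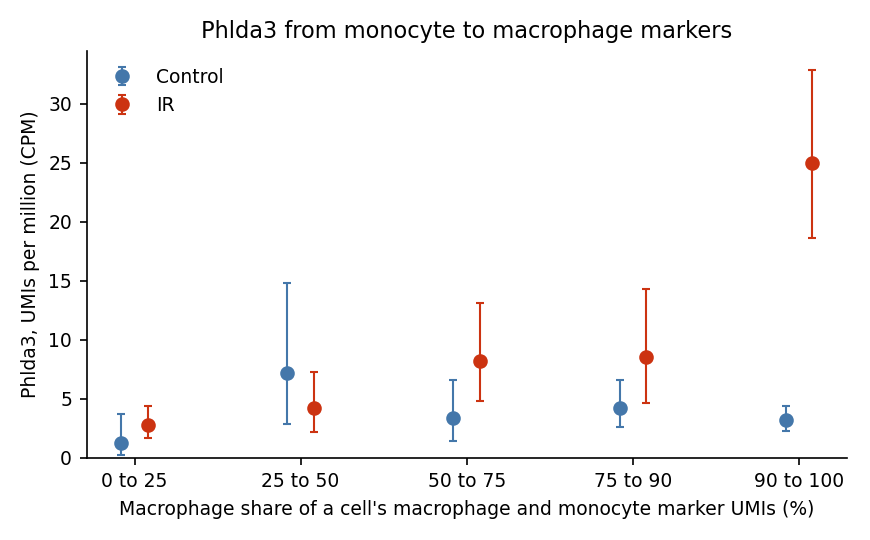
Phlda3 CPM in cells of the macrophage and monocyte gates, grouped by the macrophage share of marker UMIs, for Control (blue) and IR (red) with 95% counting intervals. At 90 to 100% the IR cells reached 25 CPM against 3.22 CPM in Control.

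Other p53 targets were higher in the cells in which Phlda3 was counted. This is a description of the cells of 1 library, with counting intervals that leave out differences between cells. In IR macrophages, the 45 cells with a Phlda3 UMI had 115 CPM of Ccng1, which encodes the p53-induced cyclin G1, against 39.2 CPM in the other 479, a ratio of 2.94 (2.23 to 3.84). For Trp53inp1, which promotes p53 phosphorylation and autophagy, the values were 41.8 and 7.48 CPM, a ratio of 5.59 (3.30 to 9.35). For Zmat3, an RNA-binding zinc finger protein, they were 17.9 and 4.72 CPM, a ratio of 3.79 (1.73 to 7.89). Aen, a nuclease of apoptotic cells, had 35.8 and 13.2 CPM. Mdm2 had 199 and 111 CPM, and Cdkn1a 938 and 541 CPM. These 6 members were all higher where Phlda3 was counted, and so was Bax, a pro-apoptotic target outside the 10, at 423 and 261 CPM. Btg2, an antiproliferative target outside the 10, was 218 and 187 CPM, and its ratio of 1.17 had an interval that included 1 (0.975 to 1.39).

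Sesn2, a sestrin that responds to several stresses, had 14.9 and 14.0 CPM (ratio 1.07, 0.491 to 2.08). The replication factor gene Pcna had 130 and 129 CPM and the macrophage gene C1qa 1901 and 1926 CPM, so neither differed by more than counting error. No Col3a1 UMI was found in the 45 cells. The cells with Phlda3 were deeper, with a median of 11099 UMIs against 8736. Among macrophages with over 10000 UMIs, where the medians were 15719 and 16080, the ratio for Ccng1 was 3.104 (2.25 to 4.25) and for Trp53inp1 5.08 (2.63 to 9.67). At this depth C1qa was lower with Phlda3, at 1603 and 2007 CPM. In Control macrophages, the 56 cells with a Phlda3 UMI also had more Ccng1 (94.03 against 43.7 CPM, ratio 2.15, 1.64 to 2.77), Cdkn1a (596 against 392 CPM) and Trp53inp1 (14.5 against 5.90 CPM, ratio 2.45, 1.14 to 4.68). The Control ratios of Zmat3 (1.68, 0.708 to 3.40) and Aen (1.33, 0.720 to 2.27) had intervals that included 1, as did that of Trp53inp1 among cells with over 10000 UMIs (2.61, 0.916 to 6.10).

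In IR, Ccng1 was also higher with Phlda3 in the NK cell, DC, T cell and monocyte gates. In the stromal gate, where most cells had Phlda3, the ratio was 0.435 (0.199 to 1.13). The Ccng1 level in IR cells with and without a Phlda3 UMI was 148 and 53.5 CPM in the NK cell gate. It was 108 and 38.1 CPM in the DC gate and 96.8 and 49.8 CPM in the T cell gate. In Control, where few cells had a Phlda3 UMI, the Ccng1 ratio was 1.37 (0.438 to 3.28) in the T cell gate. It was 1.68 (0.0415 to 9.85) in the DC gate and 1.44 (0.567 to 3.04) in the monocyte gate. All of these Control intervals included 1. The 3 NK cells of Control with Phlda3 held 0 Ccng1 UMIs. Even in the monocyte gate, where Phlda3 did not differ between the libraries, the 23 IR cells with a UMI had 115 CPM of Ccng1 against 28.3 CPM. Their depth was higher too, 16175 against 7816 UMIs at the median, and so was the macrophage marker C1qa, at 297 against 127 CPM (ratio 2.33, 1.90 to 2.83). The part of either in the Ccng1 values was not tested. Cdkn1a was also higher with Phlda3 in the DC gate (1613 and 797 CPM) and the T cell gate (663 and 445 CPM, ratio 1.49, 1.27 to 1.74). In the NK cell gate it was 209 and 196 CPM (ratio 1.07, 0.892 to 1.27), and among NK cells with over 10000 UMIs the ratio was 1.24 (1.02 to 1.51). In the monocyte gate it was 709 and 769 CPM.

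**Figure D4:**
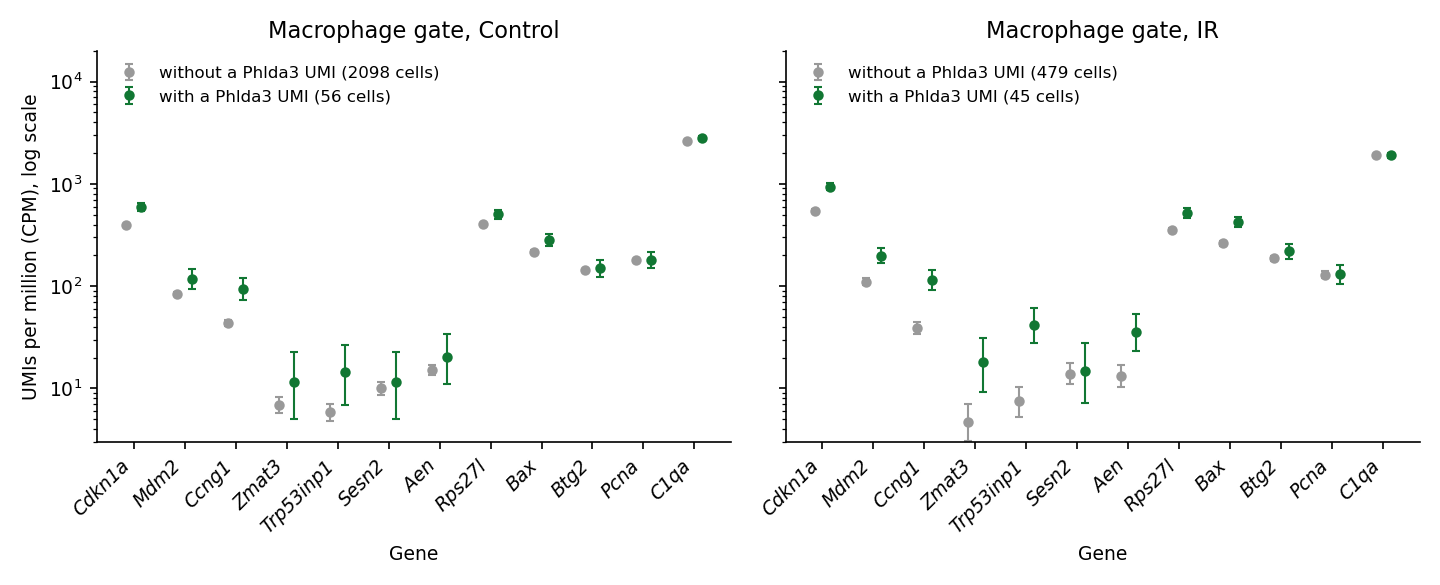
CPM on a log axis for p53 targets and 2 comparison genes (Pcna and C1qa) in macrophage-gate cells with (green) and without (grey) a Phlda3 UMI, in Control (left) and IR (right), with 95% counting intervals. In IR, Ccng1, Zmat3, Trp53inp1 and Aen were higher in the 45 cells with Phlda3, while Sesn2, Pcna and C1qa overlapped.

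Cdkn1a, the gene of the cell cycle inhibitor p21, was higher in IR in 6 of the 7 gates beyond counting error. An antisense gene, AC167363.2, overlaps it on the other strand. It was 224 and 463 CPM in the T cell gate and 96.2 and 198 CPM in the NK cell gate, a ratio of 2.07 (1.87 to 2.28) and 2.06 (1.78 to 2.40). It was 596 and 884 CPM in the DC gate, 399 and 587 CPM in the macrophage gate and 594 and 767 CPM in the monocyte gate, with ratios of 1.48, 1.47 and 1.29. In the neutrophil gate it was 753 CPM (63 UMIs) and 1658 CPM, a ratio of 2.20 (1.71 to 2.89) that turned to a log2 ratio of -0.038 with a stricter gate and -0.070 with cluster gates, and in the stromal gate 122 and 139 CPM, a ratio of 1.13 (0.966 to 1.34). The counting intervals of the 2 libraries thus overlapped in the stromal gate and in no other.

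The order of the Cdkn1a ratios was not that of Phlda3. The T cell ratio exceeded the macrophage ratio by 1.41 times (1.27 to 1.56), and the NK cell ratio did so by 1.40 times (1.20 to 1.64). Neutrophil and monocyte marker lists were also higher in IR in these lymphoid gates, and their part in the Cdkn1a ratios was not tested. By the free RNA estimate, 8.48 and 25.01 CPM of Cdkn1a in the T cell gate and 3.904 and 4.61 CPM in the NK cell gate came from free RNA. The 8 neutrophil markers summed to 114 CPM in Control (3 markers at 0) and 632 CPM in IR (0 at 0) in the T cell gate, and to 8.98 CPM (2 at 0) and 106 CPM (0 at 0) in the NK cell gate. The 6 monocyte markers, all detected, summed to 1355 and 2940 CPM in the T cell gate and to 1436 and 1850 CPM in the NK cell gate. In the Control macrophage gate they summed to 887 CPM, less than in the Control NK cell gate. Their sum is therefore not read as myeloid RNA alone. Without the Lyz2-positive cells, Cdkn1a was 95.9 and 177 CPM in 234 and 170 T cells, a ratio of 1.85 (1.49 to 2.32). In NK cells it was then 66.0 and 124 CPM, a ratio of 1.88 (1.54 to 2.30). The levels were lower without these cells, and the ratios were as large within counting error. In the stromal gate the ratio without them was 1.29 (1.09 to 1.53), so its interval then excluded 1. Without cycling cells its log2 ratio turned to -0.51, and with a stricter gate it was 0.47.

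Mdm2, the p53-directed ubiquitin ligase, was 36.9 to 85.0 CPM in the lymphoid, DC and macrophage gates of Control and higher in IR in each. The values were 65.1 and 83.9 CPM in the T cell gate, 41.9 and 56.1 CPM in the NK cell gate, 36.9 and 59.5 CPM in the DC gate and 85.0 and 121 CPM in the macrophage gate. The ratios ran from 1.29 (1.06 to 1.57) in the T cell gate to 1.61 (1.14 to 2.33) in the DC gate. They were 1.09 (0.971 to 1.22) in the monocyte gate and 1.12 (0.783 to 1.61) in the stromal gate. The T cell value turned round without the Lyz2-positive cells, to a log2 ratio of -0.36. In the neutrophil gate 5 UMIs (59.7 CPM) stood against 88 (153 CPM).

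Ccng1 was 54.3 and 70.8 CPM in the NK cell gate (ratio 1.304, 1.05 to 1.62) and 42.6 and 31.6 CPM in the monocyte gate (0.743, 0.607 to 0.914). Its other ratios had intervals that included 1. In the T cell gate it was 55.5 and 53.7 CPM, and in the macrophage gate 45.5 and 48.0 CPM.

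**Figure D5:**
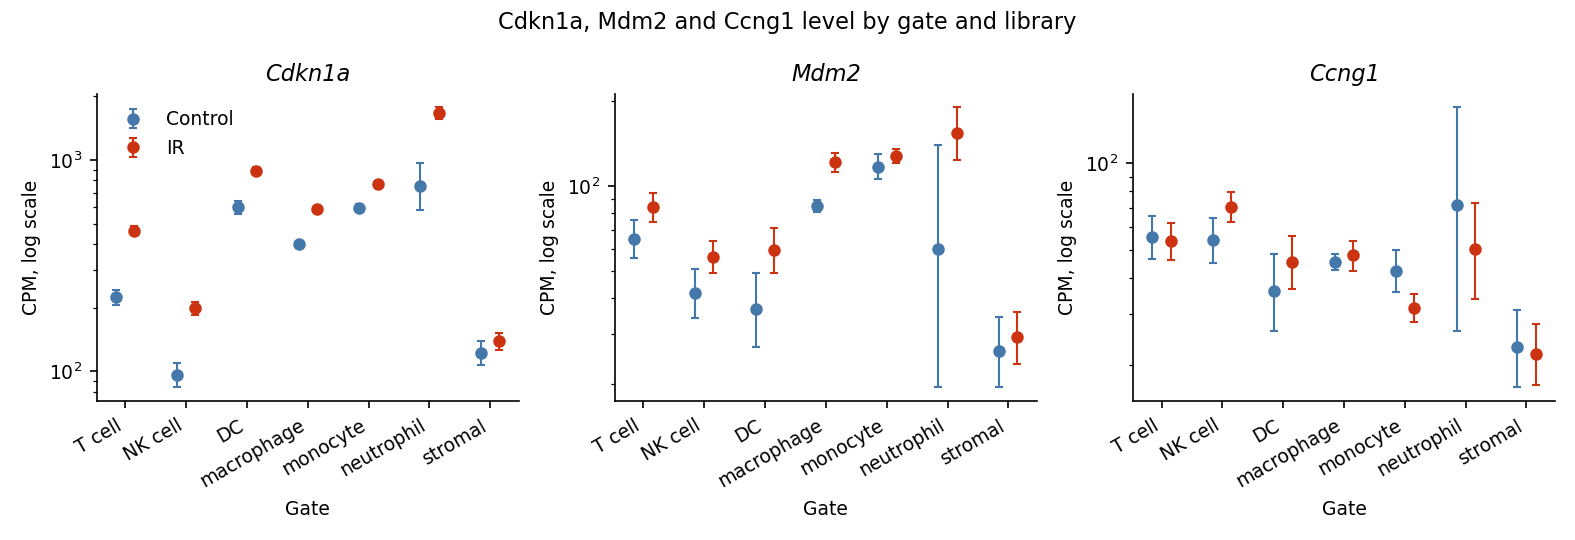
CPM on log axes for Cdkn1a, Mdm2 and Ccng1 in each gate for Control (blue) and IR (red), with 95% counting intervals. Cdkn1a in IR lay above Control in every gate but the stromal one, where the intervals overlapped, and Ccng1 differed in the NK cell and monocyte gates in opposite directions.

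The low members were less even. Trp53inp1 was 6.20 and 11.5 CPM in the macrophage gate, a ratio of 1.85 (1.35 to 2.52), and 22.7 and 14.4 CPM in the NK cell gate, a ratio of 0.636 (0.431 to 0.939). The 2 gates thus went opposite ways. In the DC gate it was 6.55 and 12.002 CPM (ratio 1.83, 0.796 to 4.72), and the stromal gate held 0 and 1 UMI. Sesn2, which shares a stretch and strand with the gene model Gm12981, was 9.05 and 16.2 CPM in the monocyte gate, a ratio of 1.79 (1.21 to 2.75), the only member called higher there. In the macrophage gate it was 10.0 and 14.1 CPM, a ratio of 1.40 (1.07 to 1.83). Aen was 15.1 and 9.26 CPM in the monocyte gate (ratio 0.614, 0.429 to 0.886) and 15.2 and 26.4 CPM in the stromal gate (ratio 1.74, 1.13 to 2.75). In the macrophage gate it was level, at 15.4 and 15.8 CPM. Zmat3 stayed between 3.62 and 9.68 CPM in the 5 gates in which it was counted, and all 5 ratios had intervals that included 1.

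Rps27l, a ribosomal protein paralog that p53 induces, had the highest level in the DC gate, 1299 CPM in Control and 1201 CPM in IR. Its ratios lay between 0.705 in the neutrophil gate and 1.302 (1.17 to 1.45) in the NK cell gate, where it was 204 and 265 CPM. Its paralog Rps27 is nearly identical, and reads could be split between them. In the NK cell gate Rps27 was level, at 2162 and 2122 CPM.

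The levels were ordered differently for each gene. In IR, Cdkn1a ran from 1658 CPM in the neutrophil gate through 884 CPM (DC), 767 CPM (monocyte), 587 CPM (macrophage), 463 CPM (T cell) and 198 CPM (NK cell) to 139 CPM (stromal), and no neighbours in this order had overlapping intervals. Phlda3 in IR ran from 169 CPM (stromal) through 14.5 CPM (DC), 14.3 CPM (macrophage), 11.2 CPM (NK cell) and 7.04 CPM (T cell) to 3.23 CPM (monocyte). The DC, macrophage and NK cell intervals overlapped, as did the T cell interval with those of the NK cell, DC and monocyte gates. Trp53 itself was highest in the stromal gate, at 279 and 298 CPM, and at most 115 CPM elsewhere. Its ratios were 0.998 (0.848 to 1.18) in the T cell gate and 0.836 (0.735 to 0.949) in the macrophage gate. The p53 inhibitor Mdm4 and the p53 phosphatase gene Ppm1d had intervals that included 1 in each gate with a ratio. Ppm1d was called higher in the monocyte gate, at 6.34 and 9.78 CPM.

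Of 13 p53 regulators, 10 were counted in the T cell gate, 10 in the NK cell gate and 11 in the macrophage gate. None of these was called higher, where 11.7%, 9.11% and 8.06% of all genes were. In the same order 1, 0 and 3 were called lower, where 9.03%, 9.03% and 12.2% of all genes were lower. Among the 7 counted in the DC gate 1 was called higher and 1 lower, against 12.0% and 9.02% of all genes. In the monocyte gate 1 of 10 was higher and 1 lower, against 8.94% and 7.48%. In the stromal gate 1 of 11 was higher and 2 lower, against 8.2% and 9.68%. In the neutrophil gate only 1 had enough UMIs, and it was called lower, where 28.7% of all genes were. So few regulators were counted per gate that no shift of them as a set is read from these counts.

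A wider list of 63 other p53 pathway genes was counted in the same way. In the NK cell gate 5 of 52 counted genes were called higher (9.62%, against 9.11% of all genes) and 3 lower, with a median log2 ratio of -0.02. In the DC gate 5 of 41 were higher (12.2%, against 12.0%) and 1 lower (median 0.06), and in the monocyte gate 5 of 54 (9.26%, against 8.94%) and 2 (median 0.06). In the neutrophil gate 9 of 26 were higher (34.6%, against 31.9%) and 5 lower (median 0.22). In these gates the share called higher was near that of all genes. In the macrophage gate 8 of 59 were higher (13.6%, against 8.06%) and 6 lower (median 0.15), and in the T cell gate 10 of 56 (17.9%, against 11.7%) and 6 (median 0.11). In the stromal gate 11 of 53 were higher (20.8%, against 8.2%) and 3 lower (median 0.12). Bax was 183 and 227 CPM in the T cell gate, 159 and 209 CPM in the NK cell gate and 197 and 250 CPM in the DC gate, within 1.5 times in each.

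The genes that differed most in the wider list varied with the gate. In the T cell gate Slc7a11, a cystine transporter that p53 is known to repress, was 45.5 and 158 CPM, and Ccnd1 (cyclin D1) was 25.2 and 68.0 CPM. Plk2 (polo-like kinase 2) was 21.6 and 52.5 CPM there, and Ninj1 72.7 and 140 CPM. The wider list was not recounted without Lyz2-positive cells, so the part of myeloid RNA in these values was not tested. Slc7a11 is counted among the genes called higher. Rrm2b, a p53-induced ribonucleotide reductase subunit, was lower at 14.0 and 5.86 CPM, and Slc19a2, Cdkn2a and Gtse1 were also lower, with intervals that included 1. In the NK cell gate Slc7a11 was again higher (5.98 and 25.1 CPM) and Rrm2b again lower (14.96 and 8.30 CPM). Trp53i11 (20.9 and 43.7 CPM), Dcxr (16.2 and 27.6 CPM) and Dram1 were higher there, and Pltp and Gtse1 lower, with intervals that included 1 for Dram1 and Gtse1. In the DC gate Plk2 was 18.8 and 35.0 CPM, Casp1 was 20.5 and 34.5 CPM, and Notch1 and Sertad3 were also called higher, with intervals that included 1. Klf4, a zinc finger factor of myeloid cells, was lower in that gate, at 270 and 141 CPM.

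In the macrophage gate the stress genes Gadd45a (23.9 and 54.3 CPM) and Ddit4 (12.6 and 27.7 CPM) were higher, with Trp53i11 and Ak1. Ldhb, Ckap2, Gtse1 and Sesn1 were lower. Sesn1 was 14.2 and 7.48 CPM, so the sestrins Sesn1 and Sesn2 went opposite ways. Ckap2 and Gtse1 act in mitosis, and the 12 cycling genes summed to 952 CPM in Control and 349 CPM in IR in this gate. In the monocyte gate Ddit4 was 10.9 and 27.2 CPM, and Lif and Ccng2 were also higher. Ddb2 was called higher from 2 Control UMIs, with an interval that included 1. Klf4 (685 and 448 CPM) and Ldhb were lower there. In the neutrophil gate Casp1, Ddit4, Btg3 and Rchy1 were called higher from 1 or 2 Control UMIs each, with intervals that included 1. Gadd45g, Rps19, Bloc1s2 and Notch1 were called lower there, Notch1 with an interval that included 1. In the stromal gate Plk2 was 80.7 and 165 CPM. Casp1, Sesn1 and Fas, a death receptor gene at 5.24 and 10.8 CPM, were higher there with intervals that included 1, and Notch1, Ei24 and Polk were lower, Polk with an interval that included 1.

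In the other gates the cycling genes summed to 1394 and 979 CPM in the T cell gate, 895 and 853 CPM in the NK cell gate, 381 and 82.0 CPM in the DC gate, 237 and 72.8 CPM in the monocyte gate, 59.7 and 22.7 CPM in the neutrophil gate and 2160 and 2006 CPM in the stromal gate. Without cycling cells the member median was 0.54 in the DC gate, 0.44 in the macrophage gate, 0.26 in the NK cell gate, 0.14 in the monocyte gate, 0.13 in the T cell gate and 0.07 in the stromal gate.

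The mean profile of the members over the 14 sums of gate and library was most like those of Ssu72 (Pearson's r = 0.86), Parp11 (0.78), Irf9 (0.75), Dtx3l (0.75), Trim34a (0.73) and Sp140 (0.72), of 7814 genes compared. This is a description over sums that share 2 libraries. Irf9 was 36.0 and 49.4 CPM in the macrophage gate and 27.9 and 52.2 CPM in the T cell gate. It was also higher in the monocyte gate (39.8 and 57.3 CPM) and the stromal gate (23.6 and 40.4 CPM). Each of these most similar genes was higher in IR in every gate, so the likeness is not particular to the gates where the members were higher.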

How the data were processed

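The authors deposited unfiltered counts of UMIs for every droplet barcode of both 10x Chromium libraries (3' chemistry). The submitters' processing notes name Cell Ranger 6.0.1 and the mm10 build, while the matrix headers give version 4. The Control matrix summed to 48593879 UMIs and the IR matrix to 42406461. The study's doublet step was not repeated.

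Barcodes with at least 1000 UMIs and at most 25% mitochondrial UMIs were gated with the lists of lineage markers. A gate needed at least 3 marker UMIs and at least 5 (T cell, NK cell), 8 (DC), 10 (stromal), 15 (macrophage, monocyte) or 100 (neutrophil) per 10000 UMIs. Cells past the threshold of another lineage, B cells, mast cells or plasmacytoid DCs were left out. The monocyte threshold was not used to leave out cells of other gates, and cells past both the macrophage and monocyte thresholds went to the larger sum. The thresholds were set on marker distributions. Counts were summed per gate and library. Exact Poisson intervals were used for CPM, exact conditional (Clopper-Pearson) intervals for ratios, exact binomial intervals for shares and log-scale intervals for ratios of ratios (scipy 1.17.1). A count of 0 was given the limit of 3 counts. No test was made with 1 library per group. Profiles were compared as log2(CPM + 10) for genes of at least 10 CPM on average. The share of free RNA was estimated from C1qa, C1qb and C1qc (T cell and NK cell markers for macrophages and monocytes) against empty droplets, ranks above 45000 up to 90000. The ratio intervals were checked on simulated data.

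The members, lists and gates were chosen with earlier results of these data known. All members were named. Of the wider list, up to 4 genes called higher and 4 called lower per gate, with the largest ratios, are named, together with Bax, which was added after its values were seen. The 6 most similar profiles and the regulators Trp53, Mdm4 and Ppm1d were also named. 63 genes of the wider list matched by symbol. Alternatives covered the UMI minimum, mitochondrial limit, Scrublet (scanpy 1.11.5), gate strictness, Leiden clusters, CPM total, TMM (edgeR 4.0.16), cell averaging, cycling cells, free RNA and the UMI filter. Leaving out Lyz2-positive cells, or the cell with the most Phlda3, was chosen after seeing the data. Gene positions are on GRCm38, the assembly of mm10.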

Additional observations from a re-analysis of the deposited data

Results flagged for a closer look

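Cdkn1a was also counted in empty droplets, which hold no cell and served here only to estimate free RNA. Its level there was 345 CPM in the IR library, with a counting interval of 311 to 381, and 273 CPM in the Control library, with an interval of 248 to 299.

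Among the members, 5 went opposite ways in 2 gates, with both counting intervals on their own side of no difference. With 1 library per group the difference was not tested, and many pairs of gates were looked at. The log2 ratio of Phlda3 was 4.15 in the DC gate and -0.35 in the stromal gate. That of Ccng1 was 0.38 in the NK cell gate and -0.43 in the monocyte gate, and that of Rps27l was 0.38 and -0.20 in the same gates. That of Trp53inp1 was 0.89 in the macrophage gate and -0.65 in the NK cell gate. That of Aen was 0.80 in the stromal gate and -0.70 in the monocyte gate.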

How the results depend on the processing

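No paired analysis was possible because each group was a single library. The medians of the members and the wider list under the alternatives were set against a band around the reported one. It ran from the median of the single genes' lower bounds to the median of their upper bounds. Such a band is about as wide as a single gene's interval, so staying within it was a loose check. Within the band lay 93 values, and 1 lay outside it, in the neutrophil gate. There the member median went from 0.43 to 2.98 on the log2 scale with a minimum of 2000 UMIs. That median also turned to -0.50 when members with 1 UMI were counted, inside its wide band. The other medians ranged from 0.44 to 0.70 in the DC gate, 0.40 to 0.58 in the macrophage gate, 0.17 to 0.48 in the NK cell gate, 0.01 to 0.45 in the T cell gate, -0.04 to 0.28 in the stromal gate and -0.13 to 0.15 in the monocyte gate. The values for single members also include the Phlda3 shares of cells without thinning, set against the intervals after thinning. In IR NK cells, for example, 8.48% lay beyond 0.281 to 2.61%, so moves of shares also follow depth. Of the values for single members 634 stayed within their interval, 33 moved beyond it and 4 turned round, counting only members whose reported interval excluded no difference. Cdkn1a in the neutrophil gate went to -0.038 with the stricter gate and -0.070 with cluster gates. Mdm2 in the T cell gate went to -0.36 without Lyz2-positive cells, and Rps27l in the DC gate to 0.070 with cluster gates. The causes were not tested. Phlda3 kept its direction under all alternatives in the T cell (1.46 to 2.73), NK cell (2.24 to 4.09), DC (3.09 to 4.95), macrophage (1.91 to 2.12) and stromal (-0.38 to -0.28) gates, and in the monocyte gate it ranged from -0.12 to 0.71. In the DC gate it had no ratio without its top cell, since Control then had 0 UMIs.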
